A study of Mus musculus with 12 samples.

Results

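The genes described here were 40 genes of the T cell receptor (TCR) complex and its proximal signalling steps, out of 24417 gene symbols listed. They were taken from a list of symbols, and a gene was kept in a comparison if the authors' mean normalized count there was at least 10. All 40 passed this filter in each of the 4 comparisons. By role they were 6 receptor chains and coreceptors, 9 kinases and other enzymes, 9 adaptors, 13 negative regulators and 3 NFAT transcription factors.

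The cells were regulatory T cells (Tregs), which express Foxp3 and hold immune responses in check, from NOD mice, a strain that develops autoimmune diabetes. The labels gave an age of 6.8 weeks for every sample and a genotype of 4-8 TCR or 12-4.4m1 TCR. Both TCRs recognise insulin, 4-8 with high and 12-4.4m1 with low affinity. Per the design text, the mice were two-TCR retrogenic animals, in which introduced TCR genes are carried by the blood cells that grow from transferred bone marrow. Tregs were sorted from pancreatic islets and from spleen, which gave islet 4-8, islet 12-4.4m1, spleen 4-8 and spleen 12-4.4m1 groups of 3 libraries each. The sources used here do not give the gate of the sort, the promoter that drives the TCR genes or the T cells the hosts still had. Nothing in the labels ties each replicate to its own mouse, and p-values therefore cover the spread among these libraries, which may be technical. Values per library are rlog values, a log2 scale that shrinks differences, above all those of genes with low counts. Each of the 4 tables was normalized on its own, so rlog values are set side by side only within a table.

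A TCR cannot signal by itself. It depends on the CD3 and zeta chains, whose tyrosines are phosphorylated by the kinase Lck, which the CD4 coreceptor brings to the complex. ZAP-70 then docks on these chains and phosphorylates the adaptors LAT and SLP-76, on which phospholipase C gamma 1 is activated. Its products open the calcium route to NFAT factors and the diacylglycerol route to Ras and NF-kB, while phosphatases, inhibitory receptors and diacylglycerol kinases restrain each step. Tregs need signals through this pathway to keep their suppressive programme.

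The libraries carried the T cell and Treg markers that the labels call for. Foxp3, the factor that defines Tregs, averaged 9.72 in islet 4-8 and 9.78 in spleen 4-8, and 9.24 in islet 12-4.4m1 and 9.15 in spleen 12-4.4m1. Of 8 B cell markers listed, 7 were matched, of which 2 or 3 had a mean normalized count of 0 in each table, and so had 4 or 5 of 6 erythroid markers. All 13 genes of a stress list of heat shock and Fos or Jun family genes were higher in islets with both TCRs. The sum of their rlog values raised as powers of 2 was 6660 to 7610 in islet 4-8 libraries and 2280 to 2380 in spleen 4-8 libraries, and 6420 to 8080 in islet 12-4.4m1 and 1970 to 2270 in spleen 12-4.4m1. Of 13 pancreatic acinar transcripts, 9 were tested with each TCR, and 7 with 4-8 and 8 with 12-4.4m1 were higher in islets. Their sum was 112 to 219 in islet 4-8 and 76.9 to 85.6 in spleen 4-8, and 204 to 267 in islet 12-4.4m1 and 95.1 to 107 in spleen 12-4.4m1, and Amy2a5 among them had a mean of 0 in both tissue tables. Malat1, a nuclear RNA, was lower in islets, with a difference of -0.84 with 4-8 and -0.67 with 12-4.4m1. Of 12 Treg markers, 11 were tested and 3 rose in islets with each TCR. These were Ctla4, Capg and Lrrc32 with 4-8, and Ctla4, Il2rb and Lrrc32 with 12-4.4m1. Ctla4 rose by 2.03 with 4-8 and 2.21 with 12-4.4m1. Of all genes tested, 5.14% rose in islets with 4-8 and 4.63% with 12-4.4m1. Summed myeloid markers were 444 to 566 in islet 4-8 and 462 to 546 in spleen 4-8, and 260 to 346 in islet 12-4.4m1 and 322 to 329 in spleen 12-4.4m1. Summed endocrine markers were 6.76 to 7.16 in islet 4-8 and 7.16 to 7.46 in spleen 4-8, and 14 to 15.5 in islet 12-4.4m1 and 14.3 to 25.8 in spleen 12-4.4m1. Summed markers of CD8 T and NK cells were 49.7 to 88.3 in islet 4-8 and 69.7 to 87.4 in spleen 4-8, and 29.8 to 40.9 in islet 12-4.4m1 and 33.1 to 39.7 in spleen 12-4.4m1. These 3 sums overlapped or nearly met between the tissues. Of 7 CD8 T and NK markers, 2 were tested with 4-8. Klrd1 rose in islets by 0.96 (adjusted p = 0.0139, limma), at a low mean of 3.847 against 2.885. Eomes differed by -0.77 and did not pass (adjusted p = 0.0651, limma). Summed B cell markers lay lower in islets, at 9.08 to 9.51 in islet 4-8 and 10.1 to 13 in spleen 4-8, and 10.9 to 13.3 in islet 12-4.4m1 and 13.8 to 14.5 in spleen 12-4.4m1, and 0 of them reached the count filter in either tissue comparison. The part of these transcripts in the tissue differences of the 40 genes was not tested. In bulk libraries, fewer cells of a type and less RNA per cell cannot be told apart.

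The level of the 40 genes spanned more than 2 orders of magnitude. In the authors' deposited table of group FPKM for the 4-8 tissue comparison, a level per transcript length with 1 value per group, the range was 9.81 to 1550 in islets and 6.64 to 1140 in spleen. Cd3g, the gamma chain of CD3, had the highest FPKM in all 4 groups of the authors' deposited tables, at 1551 in islet 4-8, 1139 in spleen 4-8, 1220 in islet 12-4.4m1 and 1050 in spleen 12-4.4m1. In islet 4-8 of that table the next in order were Cd3d, Cd2, Cd3e, Lck, Cd247, Lat and Ptprc, and the same genes came next in spleen 4-8 in another order. In the authors' deposited table for 4-8, receptor chains had a median FPKM of 881 in islets and 597 in spleen, and negative regulators one of 86.8 in islets and 94.2 in spleen. In the same authors' deposited table, kinases and other enzymes had a median of 51.5 in islets and 70.8 in spleen, and adaptors one of 32.5 in islets and 58.1 in spleen. The lowest levels were those of Dok1, an adaptor that restrains Ras, and of Plcg1 in spleen. Plcg1, which encodes phospholipase C gamma 1, had an FPKM of 21.6 in islet 4-8 and 6.64 in spleen 4-8, and 16.8 in islet 12-4.4m1 and 5.0 in spleen 12-4.4m1, in the authors' deposited tables. No error can be given for a group FPKM, since the deposited tables hold 1 value per group.

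**Figure D1:**
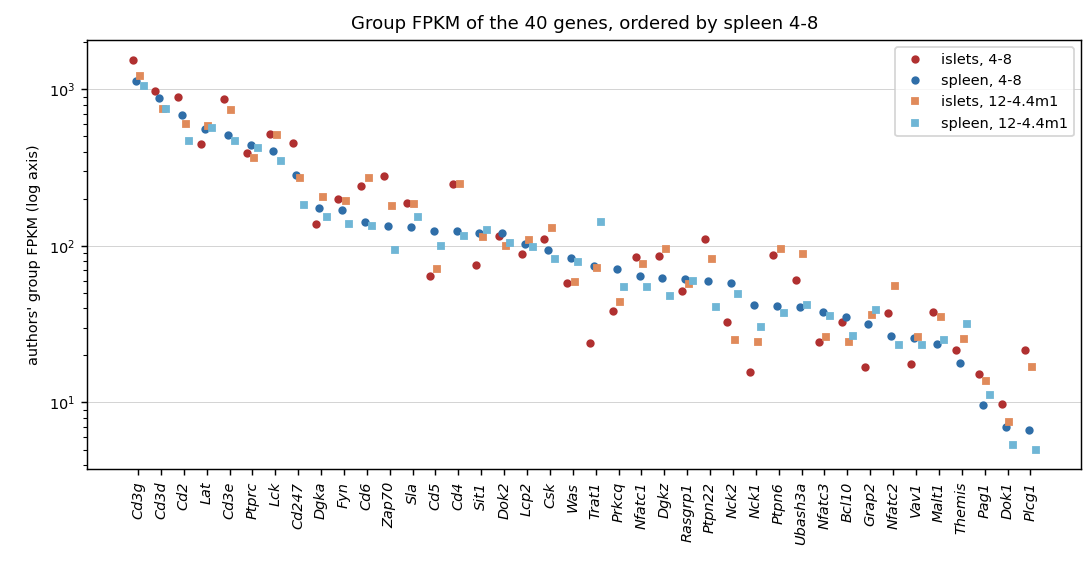
Group FPKM of the 40 genes (log axis), 1 point per gene and group from the authors' deposited tissue tables, with genes in the order of their spleen 4-8 level. Cd3g stood highest in all 4 groups, at 1050 to 1551 FPKM, and Plcg1 had the lowest spleen values, at 6.64 and 5.0.

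Between islets and spleen, Tregs of both TCRs differed in a subset of these genes. Cd4, the kinase Zap70, Plcg1 and the phosphatases Ptpn6 and Ptpn22 rose in islets with both TCRs. The genes that fell in limma were all among those listed as adaptors. Sla, Pag1, Dok1, Dok2 and Sit1, also adaptors, were listed as negative regulators and did not pass in limma. In that order, their differences were 0.39, 0.37, 0.15, -0.07 and -0.47 with 4-8. With 12-4.4m1 they were 0.23, 0.14, 0.16, 0.02 and -0.13. The medians by role below rest on this listing. Outside the 40, the adaptor genes Sh2d2a and Lime1 rose with both TCRs, and Fyb and its partner Skap1 fell with 4-8. With 4-8, 6 of the 40 genes rose in islets and 3 fell, and with 12-4.4m1, 9 rose and 1 fell (limma on rlog values, adjusted p of at most 0.05 over all genes tested). Of all genes tested, 5.14% rose and 2.84% fell with 4-8, and 4.63% rose and 2.18% fell with 12-4.4m1. The members' shares were thus 15% and 7.5% with 4-8, and 22.5% and 2.5% with 12-4.4m1. Libraries of islets and spleen did not overlap for 24 of the 40 genes with 4-8, 16 higher and 8 lower, against 14.3% and 13.1% of all genes tested. With 12-4.4m1 they did not overlap for 19, 16 higher and 3 lower, against 13.2% and 10.9% of all genes tested. The authors' deposited DESeq2 table called 7 of the 40 higher and 2 lower with 4-8 (4.72% and 2.04% of all genes tested), and 9 higher and 1 lower with 12-4.4m1 (3.44% and 1.28%). The authors' deposited Cuffdiff table called 9 higher and 8 lower with 4-8 (8.01% and 4.7% of all genes tested), and 12 higher and 1 lower with 12-4.4m1 (7.23% and 3.75%). The 8 lower in the authors' deposited Cuffdiff table were 4 adaptors, the enzyme gene Prkcq, the negative regulators Cd5 and Sit1, and Nfatc3. The median difference of the 40 genes, islets minus spleen, was 0.16 (log2) with each TCR, and that of all genes tested was -0.01 with 4-8 and 0.00 with 12-4.4m1. By role, the median difference with 4-8 was 0.39 for receptor chains, 0.19 for enzymes, -0.36 for adaptors, 0.35 for negative regulators and 0.33 for NFAT factors. With 12-4.4m1 it was 0.31 for receptor chains, 0.35 for enzymes, -0.15 for adaptors, 0.30 for negative regulators and 0.37 for NFAT factors.

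**Figure D2:**
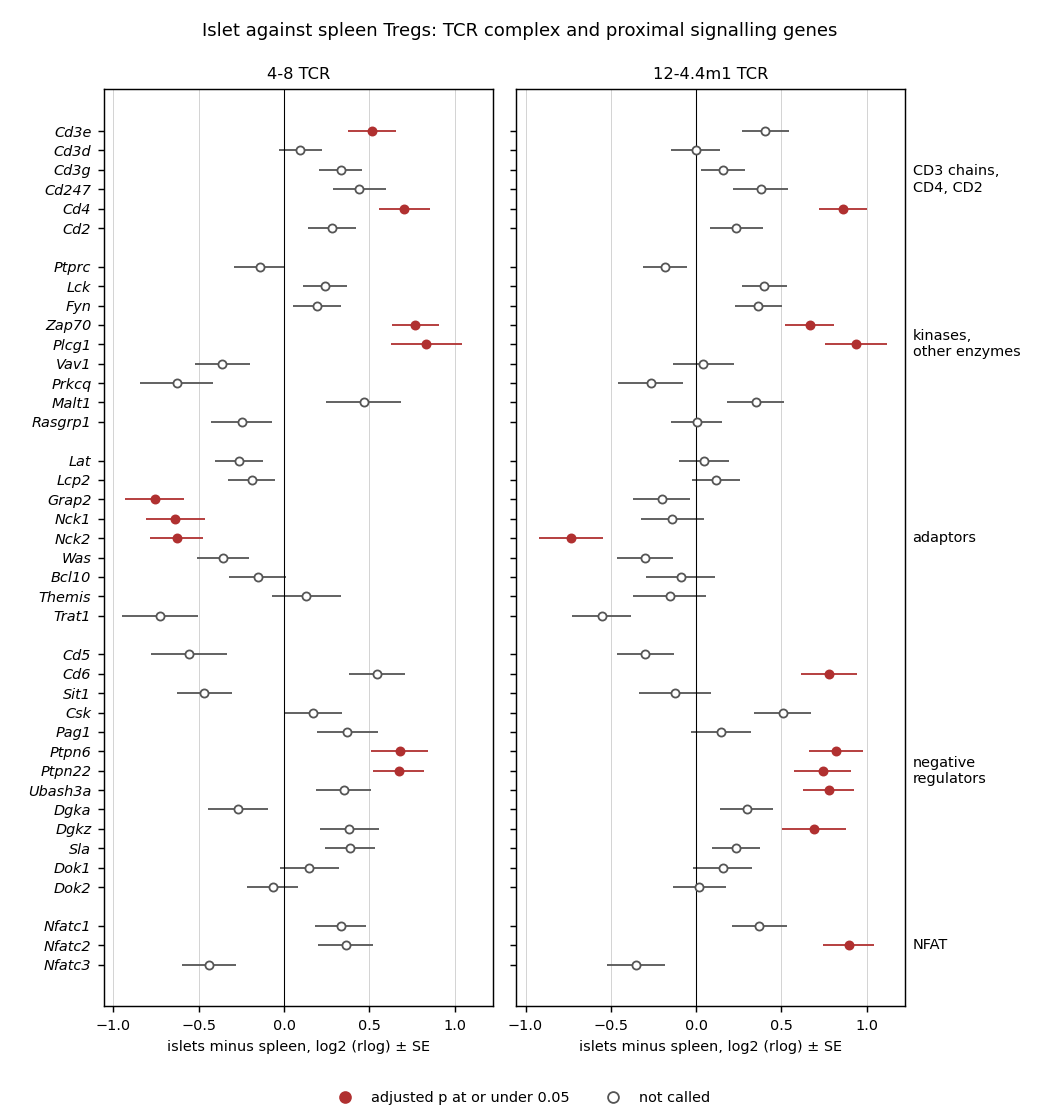
Difference of each of the 40 genes between islets and spleen (islets minus spleen, log2 on the rlog scale, with the SE of the limma fit), for 4-8 on the left and 12-4.4m1 on the right, grouped by role. Filled points passed an adjusted p of 0.05; adaptors lie mostly left of 0 and negative regulators mostly right of it, with medians of -0.36 and 0.35 for 4-8 and -0.15 and 0.30 for 12-4.4m1.

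Among the receptor chains, Cd4 was the gene that rose with both TCRs. Cd4, the coreceptor that binds MHC class II and carries Lck, had rlog values of 9.53, 10.03 and 9.85 in islet 4-8 libraries, against 9.14, 9.12 and 9.04 in spleen 4-8 libraries. Every islet library lay above every spleen library, and the islet values were the more spread. The difference was 0.71 ± 0.15 (SE, adjusted p = 0.00655, limma), which is 1.63-fold on the shrunken rlog scale. The log2 fold change in the authors' deposited DESeq2 table was larger, at 0.92. With 12-4.4m1, Cd4 had 9.31, 9.51 and 9.30 in islets, against 8.38, 8.51 and 8.65 in spleen. Again no libraries overlapped, and the difference was 0.86 ± 0.14 (adjusted p = 0.000241, limma). In the authors' deposited tables its FPKM was 248 in islet 4-8 and 125 in spleen 4-8, and 250 in islet 12-4.4m1 and 116 in spleen 12-4.4m1.

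Cd3e, the epsilon chain of CD3, rose in islets with 4-8. Its rlog values were 10.28, 10.57 and 10.57 in islet 4-8, against 10.07, 9.78 and 10.03 in spleen 4-8. The lowest islet library stood just above the highest spleen library, and the difference was 0.52 ± 0.14 (adjusted p = 0.0309, limma). The call was lost without islet 4-8 replicate 3 (adjusted p = 0.0558, limma) and without spleen 4-8 replicate 1 (0.0818), 2 (0.184) or 3 (0.100). With 12-4.4m1, Cd3e had 9.73, 9.94 and 9.59 in islets, against 9.30, 9.28 and 9.46 in spleen. The groups did not overlap here either, but the difference of 0.41 ± 0.14 did not pass (adjusted p = 0.0803, limma), and without islet 12-4.4m1 replicate 3 it was 0.49 and passed (adjusted p = 0.0284, limma). The other chains did not pass: Cd3g differed by 0.33 with 4-8 and 0.16 with 12-4.4m1, Cd247, the zeta chain, by 0.44 with 4-8 and 0.38 with 12-4.4m1, and Cd3d by 0.10 with 4-8 and -0.00 with 12-4.4m1. Cd2, an adhesion receptor that aids T cell contact, differed by 0.28 with 4-8 and 0.24 with 12-4.4m1 and did not pass.

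Of the kinases and other enzymes, Zap70 and Plcg1 rose in islets with both TCRs. Zap70, the kinase that docks on the phosphorylated CD3 and zeta chains, had 9.42, 9.56 and 9.62 in islet 4-8, against 8.74, 8.89 and 8.66 in spleen 4-8. The groups stood well apart, and the difference was 0.77 ± 0.14 (adjusted p = 0.00188, limma). With 12-4.4m1, Zap70 had 8.43, 8.42 and 8.42 in islets, against 7.74, 7.76 and 7.77 in spleen. These libraries agreed closely within each tissue, and the difference was 0.67 ± 0.14 (adjusted p = 0.00434, limma). The authors' deposited tables gave Zap70 an FPKM of 279 in islet 4-8 and 135 in spleen 4-8, and 180 in islet 12-4.4m1 and 94.8 in spleen 12-4.4m1.

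Plcg1 had 6.51, 7.26 and 6.48 in islet 4-8, against 6.06, 5.96 and 5.73 in spleen 4-8. Islet replicate 2 stood above the other two, and all 3 lay above the spleen libraries. The difference was 0.84 ± 0.21 (adjusted p = 0.0179, limma), and the call was lost without spleen 4-8 replicate 1 (adjusted p = 0.0551, limma), 2 (0.0600) or 3 (0.103). With 12-4.4m1, Plcg1 had 6.28, 5.95 and 5.97 in islets, against 5.15, 5.11 and 5.13 in spleen. The groups did not overlap, and the difference of 0.94 ± 0.18 was the largest of the 40 genes with this TCR (adjusted p = 0.00154, limma).

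Lck, the kinase that starts the cascade, lay apart between tissues without passing the test. It had 10.42, 10.53 and 10.36 in islet 4-8, against 10.11, 10.24 and 10.25 in spleen 4-8, a difference of 0.24 ± 0.13 (adjusted p = 0.286, limma). With 12-4.4m1 it had 10.01, 9.79 and 9.96 in islets, against 9.54, 9.49 and 9.52 in spleen, a difference of 0.40 ± 0.13 (adjusted p = 0.0678, limma). The islet libraries lay above the spleen libraries with both TCRs. Fyn, the other Src family kinase of T cells, also did not overlap between tissues. With 4-8, its lowest islet and highest spleen libraries were both 9.56 as rounded. Its differences of 0.19 for 4-8 and 0.36 for 12-4.4m1 did not pass. Prkcq, the protein kinase C theta of the NF-kB route, differed by -0.63 with 4-8 and -0.27 with 12-4.4m1, with overlapping libraries in both, and was lower with 4-8 in the authors' deposited Cuffdiff table (q of 0.001). The remaining enzymes, Ptprc, Vav1, Malt1 and Rasgrp1, differed by -0.36 to 0.47 with 4-8 and by -0.18 to 0.35 with 12-4.4m1, and none of them passed.

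In limma on all libraries, the genes that fell were adaptors, while without islet 4-8 replicate 2 Prkcq, Rasgrp1, Dgka and Nfatc3 also passed as lower with 4-8, and without spleen 4-8 replicate 1 the 1 gene passing as lower was Cd5. With 4-8, 3 of 9 passed as lower in islets and 8 of 9 had a negative difference, and with 12-4.4m1, 1 passed as lower and 7 were negative. Of all genes tested, 2.84% passed as lower with 4-8 and 2.18% with 12-4.4m1. Differences were negative for 4643 of all 8981 genes tested with 4-8 and 4248 of 8438 with 12-4.4m1. Nck2, an SH2 and SH3 adaptor that links the receptor to actin, had 6.81, 6.97 and 6.90 in islet 4-8, against 7.54, 7.64 and 7.38 in spleen 4-8. All islet libraries lay below all spleen libraries, and the difference was -0.63 ± 0.16 (adjusted p = 0.0176, limma). With 12-4.4m1, Nck2 had 6.39, 6.05 and 5.71 in islets, against 6.65, 6.74 and 6.96 in spleen. The islet libraries were spread over a wider range and again lay below, with a difference of -0.73 ± 0.19 (adjusted p = 0.0163, limma). The 4-8 call of Nck2 was lost without islet replicate 1 (adjusted p = 0.0622, limma) and without spleen replicate 1 (0.0918), 2 (0.115) or 3 (0.0524). The 12-4.4m1 call was lost without islet replicate 3 (adjusted p = 0.0555, limma) and without spleen replicate 2 (0.0546) or 3 (0.0907).

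Grap2 and Nck1 fell in islets with 4-8. Grap2, also called Gads, which bridges LAT and SLP-76, had 7.02, 7.34 and 7.70 in islet 4-8, against 8.07, 8.19 and 8.07 in spleen 4-8. The spleen libraries lay close together above the islet libraries, and the difference was -0.76 ± 0.17 (adjusted p = 0.0116, limma). It was lost as a call without islet 4-8 replicate 1 (adjusted p = 0.0626, limma) and without spleen 4-8 replicate 1 (0.0562) or 2 (0.0642). With 12-4.4m1, Grap2 had 7.48, 7.80 and 7.96 in islets, against 8.18, 7.98 and 7.68 in spleen, and the libraries overlapped. Nck1, the paralogue of Nck2, had 5.48, 5.64 and 5.49 in islet 4-8, against 6.04, 6.19 and 6.28 in spleen 4-8. All islet libraries lay lower, and the difference was -0.64 ± 0.17 (adjusted p = 0.0278, limma). The call was lost without islet 4-8 replicate 1 (adjusted p = 0.0721, limma) and without spleen 4-8 replicate 1 (0.0738), 2 (0.120) or 3 (0.166). With 12-4.4m1, Nck1 had 5.32, 5.34 and 5.17 in islets, against 5.44, 5.57 and 5.22 in spleen, and the difference of -0.14 ± 0.19 did not pass.

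Trat1, a transmembrane adaptor of the TCR complex, came close to the threshold with both TCRs. It had 5.46, 4.90 and 4.95 in islet 4-8, against 6.05, 5.35 and 6.09 in spleen 4-8, a difference of -0.73 ± 0.22 (adjusted p = 0.0523, limma). With 12-4.4m1 it had 5.93, 5.78 and 5.87 in islets, against 6.51, 6.26 and 6.47 in spleen, a difference of -0.55 ± 0.17 (adjusted p = 0.0526, limma). Libraries overlapped with 4-8 and did not overlap with 12-4.4m1. Lat, the scaffold on which ZAP-70 targets assemble, had 9.32, 9.63 and 9.44 in islet 4-8, against 9.78, 9.81 and 9.59 in spleen 4-8, and 9.55, 9.22 and 9.26 in islet 12-4.4m1, against 9.52, 9.28 and 9.10 in spleen 12-4.4m1. Its libraries overlapped with both TCRs, and its differences of -0.26 ± 0.14 and 0.05 ± 0.15 did not pass. Was, which encodes the actin regulator WASP, lay lower in every islet library with both TCRs, and its differences of -0.36 with 4-8 and -0.30 with 12-4.4m1 did not pass. Bcl10, which joins Malt1 in the NF-kB route, and Themis differed by at most 0.16 in size with 4-8 and 12-4.4m1 and did not pass.

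Negative regulators held 2 of the 6 genes that rose with 4-8 and 5 of the 9 that rose with 12-4.4m1. That is 2 and 5 of the 13 in the list, against 5.14% and 4.63% of all genes tested. Ptpn6, the phosphatase SHP-1, had 7.94, 7.43 and 7.89 in islet 4-8, against 7.09, 7.10 and 7.02 in spleen 4-8. Islet replicate 2 was the lowest of the islet libraries and still lay above the spleen libraries, and the difference was 0.68 ± 0.17 (adjusted p = 0.0173, limma). That call was lost without islet 4-8 replicate 1 (adjusted p = 0.0772, limma) and without spleen 4-8 replicate 1 (0.0786), 2 (0.0651) or 3 (0.0895). With 12-4.4m1, Ptpn6 had 7.41, 7.37 and 7.34 in islets, against 6.57, 6.48 and 6.6 in spleen. Both groups were tight and far apart, with a difference of 0.82 ± 0.16 (adjusted p = 0.00141, limma).

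Ptpn22, the phosphatase that acts on Lck and ZAP-70, had 8.38, 8.75 and 8.57 in islet 4-8, against 8.00, 7.83 and 7.85 in spleen 4-8. The groups did not overlap, and the difference was 0.67 ± 0.15 (adjusted p = 0.00982, limma), lost as a call without spleen 4-8 replicate 2 (0.0614) or 3 (0.0631). With 12-4.4m1, Ptpn22 had 7.65, 7.53 and 7.84 in islets, against 6.70, 6.89 and 7.19 in spleen. Islet libraries again lay above spleen libraries, and the difference was 0.74 ± 0.17 (adjusted p = 0.00633, limma), lost as a call without spleen 12-4.4m1 replicate 1 (0.0663).

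Cd6, Ubash3a and Dgkz rose in islets with 12-4.4m1. Cd6, a scavenger family receptor that can damp TCR signals, had 9.27, 9.24 and 9.65 in islet 12-4.4m1, against 8.26, 8.66 and 8.92 in spleen 12-4.4m1. The groups did not overlap, and the difference was 0.78 ± 0.16 (adjusted p = 0.00359, limma), lost as a call without spleen 12-4.4m1 replicate 1 (0.0569). With 4-8, Cd6 had 9.52, 9.66 and 9.96 in islets, against 8.90, 9.46 and 9.15 in spleen, and its difference of 0.54 ± 0.16 did not pass in limma (adjusted p = 0.0511) and passed as higher in the authors' deposited DESeq2 table (adjusted p = 0.0053) and the authors' deposited Cuffdiff table (q of 0.001). Ubash3a, one of the proteins named suppressor of TCR signalling, had 7.84, 7.85 and 7.94 in islet 12-4.4m1, against 7.14, 7.08 and 7.09 in spleen 12-4.4m1. Both groups were tight, and the difference was 0.78 ± 0.15 (adjusted p = 0.0016, limma). With 4-8, Ubash3a had 7.65, 7.92 and 8.08 in islets, against 7.68, 7.42 and 7.49 in spleen, and the libraries overlapped. Dgkz, a diacylglycerol kinase, had 8.50, 8.26 and 7.66 in islet 12-4.4m1, against 7.55, 7.64 and 7.15 in spleen 12-4.4m1. Islet replicate 3 stood barely above the highest spleen library, and the difference was 0.69 ± 0.19 (adjusted p = 0.0239, limma). The call of Dgkz was lost without islet 12-4.4m1 replicate 1 (0.137) or 2 (0.0935) and without spleen 12-4.4m1 replicate 1 (0.0547) or 3 (0.149). Replicates 1 and 2 of islet 12-4.4m1 carry Treg in their titles, and with the title style in the fit the difference of Dgkz was 0.22 (adjusted p = 0.605, limma).

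The other negative regulators did not pass with either TCR in limma. In the authors' deposited Cuffdiff table, Cd5 (q of 0.001) and Sit1 (0.0495) were lower in islets with 4-8, and Csk (0.0189) was higher with 12-4.4m1. Csk, the kinase that shuts down Lck, differed by 0.17 with 4-8 and 0.51 with 12-4.4m1, and Pag1, which anchors Csk at the membrane, by 0.37 with 4-8 and 0.14 with 12-4.4m1. Sla, an adaptor that promotes degradation of TCR chains, lay higher in every islet library with both TCRs, with differences of 0.39 for 4-8 and 0.23 for 12-4.4m1. Cd5, an inhibitory receptor known to follow TCR signal strength in thymocytes, differed by -0.56 with 4-8 and -0.30 with 12-4.4m1, with overlapping libraries. Sit1, another inhibitory transmembrane adaptor, differed by -0.47 with 4-8 and -0.13 with 12-4.4m1. Dgka, the alpha diacylglycerol kinase, differed by -0.27 with 4-8 and 0.30 with 12-4.4m1, and Dok1 and Dok2 by 0.16 or less in size with both TCRs.

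Nfatc2 rose in islets with 12-4.4m1. This calcium-dependent factor had 8.19, 8.28 and 8.07 in islet 12-4.4m1, against 7.24, 7.38 and 7.23 in spleen 12-4.4m1. The libraries stood well apart, and the difference was 0.89 ± 0.15 (adjusted p = 0.000329, limma). With 4-8, Nfatc2 had 7.90, 8.33 and 8.31 in islets, against 7.74, 7.98 and 7.73 in spleen, and the libraries overlapped at a difference of 0.36 ± 0.16. With 4-8, 0 of 3 NFAT genes passed in limma and in the authors' deposited DESeq2 table, all 3 had an unadjusted p of at most 0.05 (22.2% of all genes tested), and Nfatc3 passed as lower in the authors' deposited Cuffdiff table. Nfatc3, which had the smallest p of them, had 7.71, 8.02 and 7.58 in islet 4-8, against 8.14, 8.21 and 8.28 in spleen 4-8. Every islet library lay below every spleen library, and the difference of -0.44 ± 0.16 did not pass (adjusted p = 0.0978, limma), but was -0.57 and passed without islet 4-8 replicate 2 (adjusted p = 0.0116, limma). With 12-4.4m1, Nfatc3 differed by -0.35, and Nfatc1 differed by 0.33 with 4-8 and 0.37 with 12-4.4m1.

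**Figure D3:**
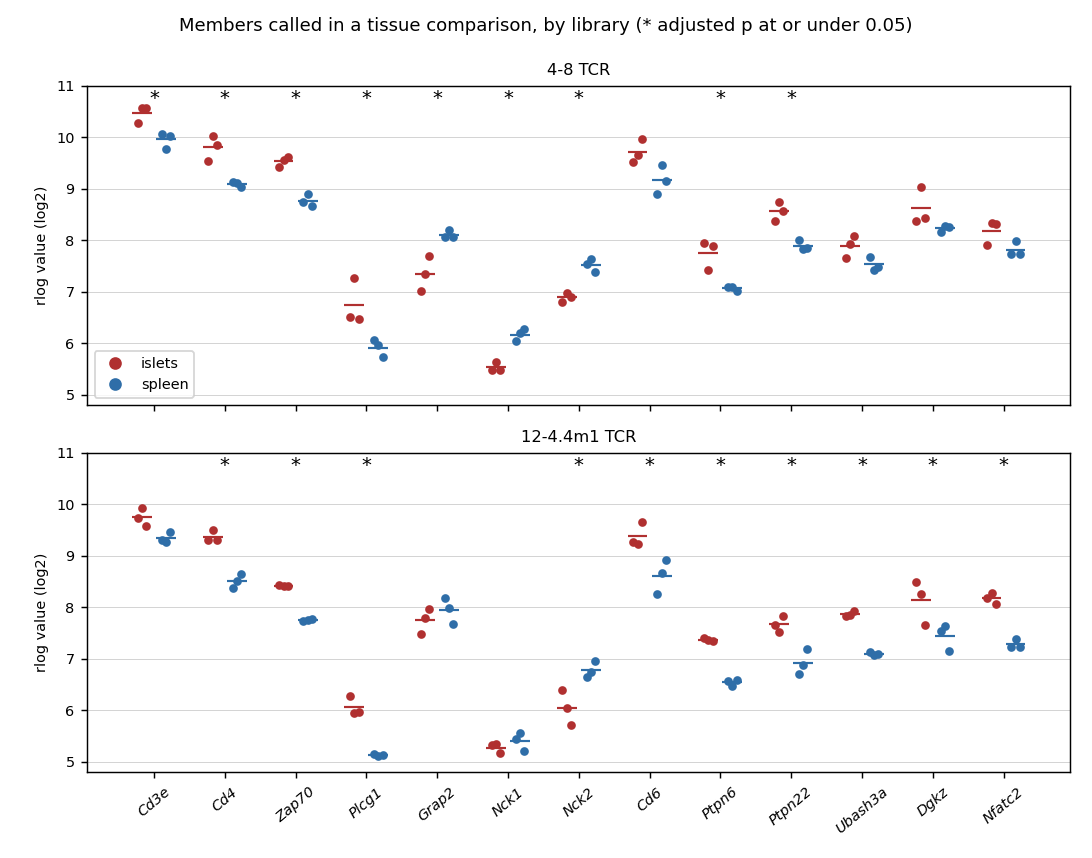
Rlog value (log2) of each library for the 13 genes that passed in a tissue comparison, islets left of spleen for each gene, with 4-8 above and 12-4.4m1 below; bars are means of 3 libraries and a star marks an adjusted p of at most 0.05. Cd4, Zap70, Plcg1, Ptpn6 and Ptpn22 stood higher in all islet libraries of both TCRs and Nck2 lower.

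The tissue comparisons of the 2 TCRs share no library, and their calls are set side by side. The labels do not say whether libraries of the 2 TCRs came from the same mice. Calls shared by both may therefore not be independent. Cd4, Zap70, Plcg1, Ptpn6 and Ptpn22 rose with both (2.8% of the 8298 genes tested with both TCRs), which is 83.3% of the 6 genes that rose with 4-8 and 55.6% of the 9 with 12-4.4m1. Nck2 fell with both (0.747% of those 8298), which is 33.3% of the 3 genes that fell with 4-8 and the 1 gene that fell with 12-4.4m1. The sign of the difference was the same with both TCRs for 32 of the 40 genes, and for 69.1% of those 8298. Without overlap in both comparisons, 12 genes were higher in islets, namely Cd3e, Cd3g, Cd4, Lck, Fyn, Zap70, Plcg1, Cd6, Ptpn6, Ptpn22, Dgkz and Sla, and Nck2 and Was were lower, against 6.51% higher and 3.74% lower of those 8298. Whether a tissue difference depended on the TCR was not tested, since the tables were normalized separately. The counts moved with single libraries, and the share of all genes passing in the same fits was not counted. With 4-8, the 6 genes that rose became 3 without spleen replicate 1, 3 without spleen replicate 2 and 2 without spleen replicate 3, and the 3 that fell became 1 without islet replicate 1 or any spleen replicate and 7 without islet replicate 2. With 12-4.4m1, the 9 that rose became 6 without spleen replicate 1, and the 1 that fell became 0 without islet replicate 3 or spleen replicate 2 or 3. The same single libraries never removed Cd4 or Zap70, which passed in all 6 such fits with each TCR.

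Pairs of related genes differed in their balance within a library, a quantity that a shift of the whole library leaves unchanged. These pairs were chosen after their values were seen and are given without a test. Cd3e minus Cd3d was -0.23, -0.02 and -0.01 in islet 4-8, against -0.44, -0.59 and -0.49 in spleen 4-8, so Cd3e stood closer to Cd3d in each islet library. With 12-4.4m1 it was 0.20, 0.23 and -0.34 in islets, against -0.51, -0.25 and -0.38 in spleen, and islet replicate 3 fell among the spleen values. Nfatc2 minus Nfatc3 was 0.19, 0.30 and 0.73 in islet 4-8, against -0.40, -0.24 and -0.55 in spleen 4-8. With 12-4.4m1 it was 0.59, 1.07 and 1.08 in islets, against -0.48, -0.14 and -0.37 in spleen. The sign of this difference was positive in all 6 islet libraries and negative in all 6 spleen libraries. Dgkz minus Dgka was -0.47, -0.37 and -0.24 in islet 4-8, against -1.13, -1.10 and -0.81 in spleen 4-8, and -0.55, -0.74 and -1.15 in islet 12-4.4m1, against -1.42, -0.93 and -1.28 in spleen 12-4.4m1, with overlap only for 12-4.4m1.

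**Figure D4:**
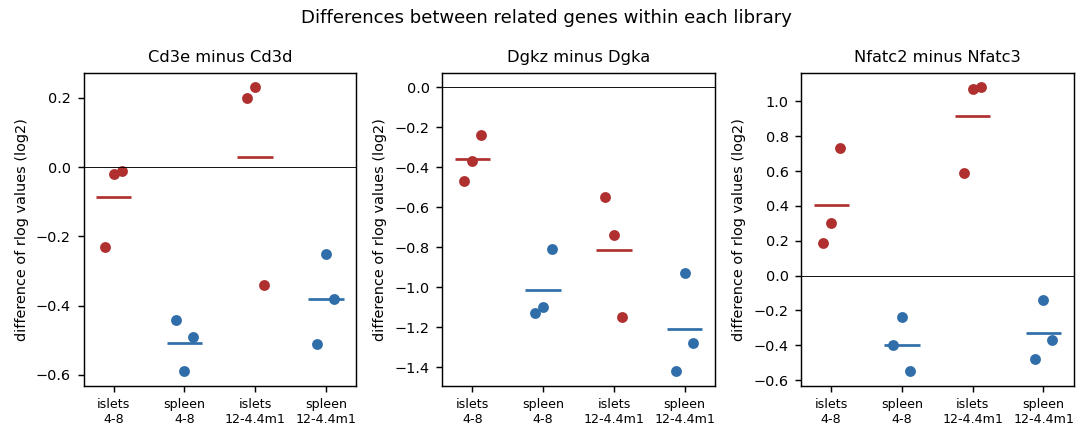
Difference of rlog values (log2) between related genes within each library, for Cd3e minus Cd3d, Dgkz minus Dgka and Nfatc2 minus Nfatc3, with 1 point per library and bars for means of 3. Nfatc2 minus Nfatc3 lay between 0.19 and 1.08 in islet libraries and between -0.55 and -0.14 in spleen libraries.

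The genes that moved alike with both TCRs are on different chromosomes apart from 2 pairs. In GENCODE vM21 on GRCm38, the 40 genes lie on 17 chromosomes, and 5 pairs lie within 200 kb of each other. Cd4 (chr6:124864692-124888221, minus strand) and Ptpn6 (chr6:124720707-124738714, minus strand), which both rose in islets, are 126.0 kb apart, and Zap70 (chr1:36761798-36782818) and Nck2 (chr1:43444579-43570515), which moved in opposite directions, share chromosome 1. Cd3d, Cd3e and Cd3g span 40.1 kb on chromosome 9, and of these Cd3e passed with 4-8. Cd5 and Cd6 are 50.3 kb apart on chromosome 19, and their differences had opposite signs, at -0.56 and 0.54 with 4-8 and at -0.30 and 0.78 with 12-4.4m1.

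Promoter sequence was matched for 31 of the 40 genes in RefSeq (GRCm38.p6). The 250 bases before the most upstream listed start are printed for the genes that passed in the same direction with both TCRs, since these carry the tissue result, and Cd4 was not matched. Bases are 5′ to 3′ on the gene's strand, and capitals mark a match to a motif searched on both strands, which were the NFAT core TGGAAA, the AP-1 site TGANTCA, the Runx core TGTGGT, the ETS core CGGAAG and the forkhead motif TGTTTAC. The windows are chr1:36761548-36761797 (plus strand) for Zap70, chr2:160731060-160731309 (plus strand) for Plcg1, chr6:124738710-124738959 (minus strand) for Ptpn6, chr3:103859545-103859794 (plus strand) for Ptpn22 and chr1:43445501-43445750 (plus strand) for Nck2.
Zap70: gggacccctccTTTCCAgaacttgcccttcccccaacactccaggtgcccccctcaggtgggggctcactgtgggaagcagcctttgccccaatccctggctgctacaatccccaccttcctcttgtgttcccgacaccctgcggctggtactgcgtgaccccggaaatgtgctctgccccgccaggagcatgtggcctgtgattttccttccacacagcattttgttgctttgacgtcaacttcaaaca
Plcg1: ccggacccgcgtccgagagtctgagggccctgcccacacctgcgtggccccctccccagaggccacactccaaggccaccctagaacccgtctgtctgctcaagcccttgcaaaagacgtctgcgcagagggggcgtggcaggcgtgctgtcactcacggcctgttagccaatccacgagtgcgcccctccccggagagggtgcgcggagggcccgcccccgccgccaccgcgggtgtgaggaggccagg
Ptpn6: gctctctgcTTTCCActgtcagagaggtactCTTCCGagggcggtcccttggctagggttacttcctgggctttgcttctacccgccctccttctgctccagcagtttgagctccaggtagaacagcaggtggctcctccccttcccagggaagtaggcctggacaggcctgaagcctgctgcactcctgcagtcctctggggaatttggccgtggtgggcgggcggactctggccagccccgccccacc
Ptpn22: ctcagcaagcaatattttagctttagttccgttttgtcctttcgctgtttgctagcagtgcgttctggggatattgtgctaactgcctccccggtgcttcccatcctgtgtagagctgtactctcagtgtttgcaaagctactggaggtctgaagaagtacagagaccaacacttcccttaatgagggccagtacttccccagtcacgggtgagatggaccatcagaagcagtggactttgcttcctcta
Nck2: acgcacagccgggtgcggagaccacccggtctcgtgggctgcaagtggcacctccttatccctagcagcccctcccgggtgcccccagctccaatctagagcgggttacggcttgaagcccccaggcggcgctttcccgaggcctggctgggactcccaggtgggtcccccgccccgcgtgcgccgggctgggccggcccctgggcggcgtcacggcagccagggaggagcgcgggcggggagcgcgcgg
Zap70 held an NFAT core at position -239, counted back from the start, and Ptpn6 held an NFAT core at -241 and an ETS core at -219, in each case read on the opposite strand. The windows of Plcg1, Ptpn22 and Nck2 held none of these letters. The Nck2 window lies inside the GENCODE gene, which begins at 43444579, because the RefSeq start used is further downstream. It is therefore not the sequence upstream of the GENCODE start. The Plcg1 and Ptpn6 windows reach a few bases into their GENCODE genes. The NFAT core was in 6 of 31 matched members (19.4%) and in 18.6% of all 32851 promoters, the Runx core in 3 (9.68%) and 14%, the ETS core in 2 (6.45%) and 13.6%, the forkhead motif in 3 (9.68%) and 3.17%, and the AP-1 site in 0 of 31 and 6.75%. Members were counted at the most upstream start of each gene, and the 32851 promoters include every listed start. The 2 shares are therefore not of like sets. As spelled, matches to the NFAT and ETS cores cannot overlap, and no pair of these motifs can share more than 2 bases. A match describes letters in a window and not a bound site.

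Between the TCRs within a tissue, no difference of the 40 genes passed in the main limma fit. In islets, 0 of the 40 genes passed as higher or lower in 4-8 than in 12-4.4m1 in limma, in the authors' deposited DESeq2 table and in the authors' deposited Cuffdiff table. Of all genes tested, 0.256% passed as higher and 0.11% as lower in limma, 0.256% and 0.0974% in the authors' deposited DESeq2 table, and 0.473% and 0.162% in the authors' deposited Cuffdiff table. At an unadjusted p of at most 0.05, 3 of the 40 were higher and 4 lower in limma, against 3.77% and 3.01% of all genes tested. The libraries did not overlap for 11 of the 40 genes, 4 higher and 7 lower, against 5.92% and 5.99% of all genes tested. The median difference, 4-8 minus 12-4.4m1, was -0.01, and 20 of the 40 differences were positive. By role it was 0.31 for receptor chains, 0.03 for enzymes, -0.17 for adaptors, -0.08 for negative regulators and 0.00 for NFAT factors. The median SE of the 40 differences was 0.192 in islets and 0.122 in spleen.

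In islets the receptor chains had positive differences for 5 of 6 and the adaptors negative ones for 7 of 9. Of all 8212 genes tested, 4050 were positive and 4162 negative. Cd247, with the smallest p among the receptor chains, had 8.98, 8.98 and 9.46 in islet 4-8, against 8.19, 8.70 and 8.76 in islet 12-4.4m1. The libraries did not overlap, and the difference of 0.59 ± 0.20 did not pass (adjusted p = 0.359, limma). Zap70 had 8.91, 9.06 and 9.12 in islet 4-8, against 8.53, 8.51 and 8.51 in islet 12-4.4m1. The groups stood apart, and the difference of 0.51 ± 0.18 did not pass (adjusted p = 0.382, limma). Grap2, with the smallest p of all 40 genes, had 6.44, 6.77 and 7.12 in islet 4-8, against 7.19, 7.51 and 7.66 in islet 12-4.4m1. The 4-8 libraries all lay lower, and the difference of -0.68 ± 0.21 did not pass (adjusted p = 0.255, limma).

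Lat had 8.74, 9.08 and 8.87 in islet 4-8, against 9.43, 9.08 and 9.13 in islet 12-4.4m1, with a difference of -0.32 ± 0.19 that did not pass. Its highest 4-8 library stood level, to 2 decimals, with its lowest 12-4.4m1 library. Other adaptors whose islet libraries lay lower in 4-8 without overlap were Lcp2, which encodes SLP-76, Nck1 and Trat1, with differences of -0.25, -0.17 and -0.55 that did not pass. Nfatc2 had 7.47, 7.93 and 7.90 in islet 4-8, against 8.19, 8.27 and 8.06 in islet 12-4.4m1, a difference of -0.41 ± 0.19 (adjusted p = 0.697, limma). The groups did not overlap, and Ubash3a likewise lay lower in every 4-8 library, at -0.38. Dgka, with the smallest p among the negative regulators, had 8.28, 8.89 and 8.11 in islet 4-8, against 8.95, 8.89 and 8.70 in islet 12-4.4m1, and its difference of -0.42 ± 0.20 did not pass (adjusted p = 0.727, limma). Cd3e had 9.75, 10.08 and 10.07 in islet 4-8, against 9.72, 9.93 and 9.56 in islet 12-4.4m1, and Lck had 9.89, 10.02 and 9.82 in islet 4-8, against 9.97, 9.75 and 9.92 in islet 12-4.4m1. Both overlapped between the TCRs, at 0.23 ± 0.18 and 0.03 ± 0.17. The stress list had 0 of 13 genes passing here, 5900 to 6650 in sum in islet 4-8 and 7230 to 9050 in islet 12-4.4m1, and its part in these values was not tested.

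In spleen, 0 of the 40 genes passed between the TCRs in limma and in the authors' deposited DESeq2 table. At an unadjusted p of at most 0.05, 4 of the 40 were higher and 2 lower in limma, against 3.49% and 4.44% of all genes tested. The authors' deposited Cuffdiff table called Cd247 and Cd2 higher (q of 0.0306 and 0.0229) and Themis lower (0.0143) in 4-8. Of all genes tested, 0.209% passed as higher and 0.22% as lower in limma, 0.154% and 0.0769% in the authors' deposited DESeq2 table, and 0.451% and 0.462% in the authors' deposited Cuffdiff table. The libraries did not overlap for 9 of the 40 genes, 8 higher and 1 lower, against 6.79% and 6.48% of all genes tested. The median difference was 0.10, with 33 of 40 positive, and that of all genes tested was 0.00, with 4529 of 9108 positive. By role it was 0.15 for receptor chains, 0.18 for enzymes, 0.02 for adaptors, 0.09 for negative regulators and 0.11 for NFAT factors. Leaving out spleen 12-4.4m1 replicate 3, 1 gene, Themis, passed as lower. With the replicate number as a term in the fit (a block), Cd247 and Cd2 passed as higher and Trat1 as lower. No label ties these numbers to mice.

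Cd247 had the smallest p of the 40 genes in spleen. It had 9.19, 9.04 and 9.38 in spleen 4-8, against 8.77, 8.78 and 8.6 in spleen 12-4.4m1. The groups did not overlap, and the difference of 0.49 ± 0.12 did not pass (adjusted p = 0.0756, limma). With robust variance estimation it passed (adjusted p = 0.045, limma). Cd2 had 9.79, 9.98 and 9.90 in spleen 4-8, against 9.39, 9.42 and 9.58 in spleen 12-4.4m1. These groups were also apart, at 0.43 ± 0.11 (adjusted p = 0.114, limma). Zap70 had 8.62, 8.78 and 8.55 in spleen 4-8, against 8.26, 8.30 and 8.29 in spleen 12-4.4m1, a difference of 0.37 ± 0.12 (adjusted p = 0.273, limma). Every 4-8 library lay above every 12-4.4m1 library.

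Trat1 had the smallest p among the spleen adaptors, at 6.67, 6.0 and 6.69 in spleen 4-8, against 7.06, 6.84 and 7.0 in spleen 12-4.4m1. The 4-8 libraries all lay lower, and the difference of -0.51 ± 0.15 did not pass (adjusted p = 0.189, limma). Ptpn22 had 7.85, 7.70 and 7.73 in spleen 4-8, against 7.21, 7.40 and 7.66 in spleen 12-4.4m1, a difference of 0.34 ± 0.13 (adjusted p = 0.439, limma). Its groups did not overlap, though the lowest 4-8 library stood barely above the highest 12-4.4m1 library. Themis, an adaptor of thymocyte selection, had 7.20, 7.29 and 7.40 in spleen 4-8, against 8.03, 7.89 and 7.13 in spleen 12-4.4m1, and replicate 3 of 12-4.4m1 stood apart from the other two. Nfatc1 had 8.48, 8.80 and 8.78 in spleen 4-8, against 8.4, 8.55 and 8.6 in spleen 12-4.4m1, a difference of 0.17 ± 0.12 that did not pass. Cd3e had 10.07, 9.76 and 10.04 in spleen 4-8, against 9.82, 9.82 and 9.98 in spleen 12-4.4m1, and Lat had 9.93, 9.96 and 9.73 in spleen 4-8, against 10.1, 9.86 and 9.66 in spleen 12-4.4m1. Both overlapped, at 0.08 ± 0.12 and -0.00 ± 0.12. Lck had 10.13, 10.28 and 10.3 in spleen 4-8, against 10.08, 10.04 and 10.06 in spleen 12-4.4m1, so that every 4-8 library lay higher, at a difference of 0.18 ± 0.11 that did not pass. Xist, an RNA of the inactive X chromosome in females, was 7.33, 8.39 and 9.46 in spleen 4-8, against 8.7, 10.92 and 10.74 in spleen 12-4.4m1. With its level in the fit 0 of the 40 genes passed, the difference of Nfatc1 was 0.35 and that of Lat -0.22.

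**Figure D5:**
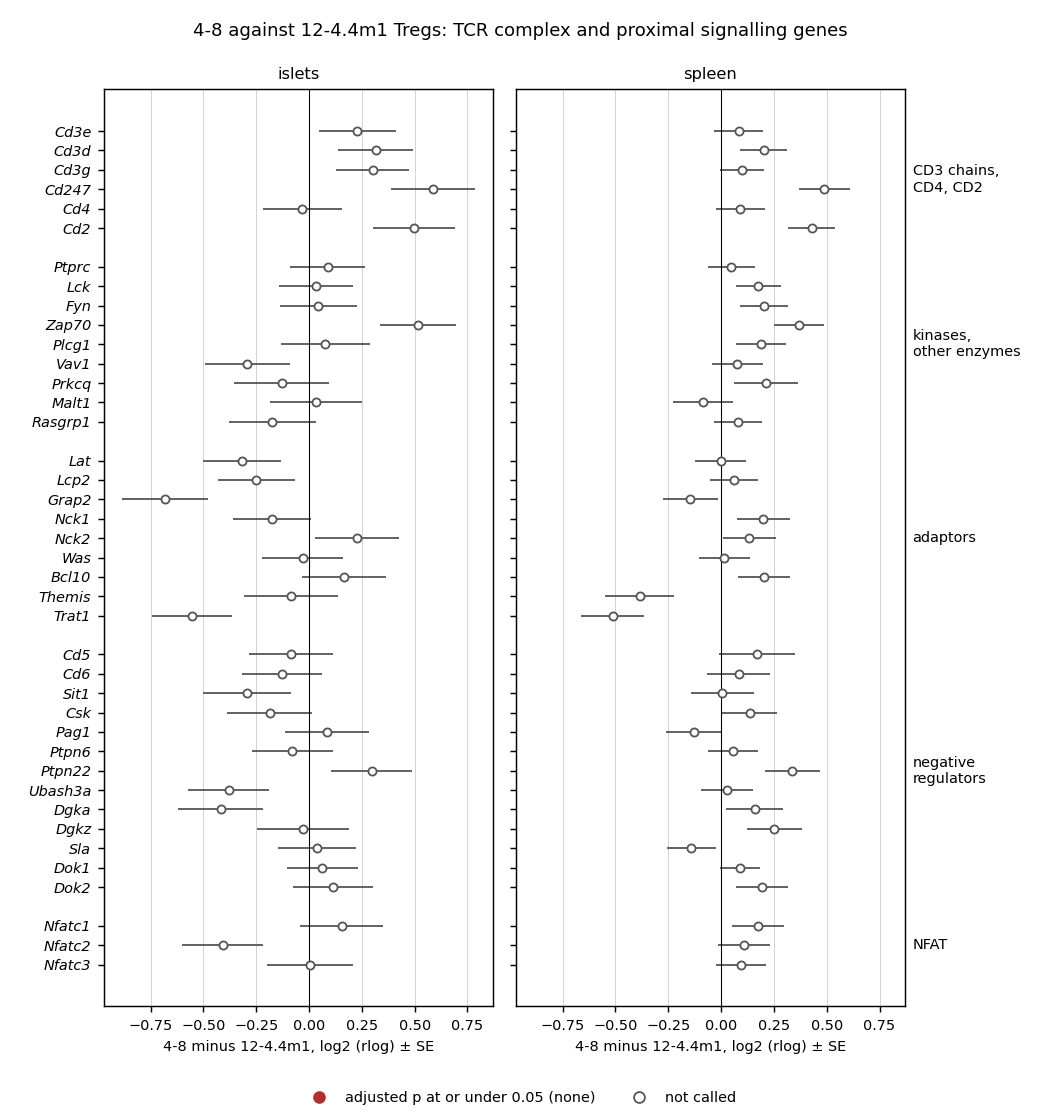
Difference of each of the 40 genes between the TCRs (4-8 minus 12-4.4m1, log2 on the rlog scale, with the SE of the limma fit), for islets on the left and spleen on the right, grouped by role. All points are open because 0 of 40 passed; Cd247, Zap70 and Trat1 lay at 0.59, 0.51 and -0.55 in islets and 0.49, 0.37 and -0.51 in spleen.

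The islet and spleen comparisons of the TCRs share no library, but the labels do not say whether they share mice. Cd247 and Zap70 were higher in every 4-8 library in both tissues and Trat1 was lower, against 0.795% higher and 0.646% lower of the 8049 genes tested in both tissues. The sign was the same in both tissues for 21 of the 40 genes and for 52.9% of those 8049. The TCR and tissue comparisons share libraries, so their values are only given side by side: Zap70 differed by 0.51 and 0.37 between the TCRs in islets and spleen, and by 0.77 and 0.67 between the tissues with 4-8 and 12-4.4m1. Grap2 differed by -0.68 and -0.15 between the TCRs, and by -0.76 and -0.20 between the tissues. Cd4 differed by -0.03 and 0.09 between the TCRs, and by 0.71 and 0.86 between the tissues.

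A further 60 genes of the pathway were followed beside the 40, of which 58 to 60 were tested in a comparison. Between tissues with 4-8, 5 rose and 4 fell in islets. Sh2d2a, which encodes the Lck-binding adaptor TSAd, rose by 1.15 (adjusted p = 5.12e-05, limma), Tagap, a GTPase-activating protein, by 0.99 (0.00229), Cblb, an E3 ubiquitin ligase that restrains activation, by 0.77 (0.00778), Cd28, the costimulatory receptor, by 0.60 (0.0323) and Lime1, an Lck-interacting adaptor, by 0.59 (0.0209). Fyb, the adaptor ADAP, fell by 0.63 (adjusted p = 0.00685, limma), Skap1, its binding partner, by 0.66 (0.00881) and Orai2, a calcium channel subunit, by 0.69 (0.0163). Between tissues with 12-4.4m1, 5 rose: Sh2d2a by 1.19 (adjusted p = 1.84e-05, limma), Tagap by 1.17 (7.79e-05), Orai1, the main calcium channel subunit, by 0.76 (0.0113), Cblb by 0.68 (0.00989) and Lime1 by 0.56 (0.0270). The shares that rose were 8.33% with 4-8 and 8.47% with 12-4.4m1, against 5.14% and 4.63% of all genes tested. The shares that fell were 6.67% with 4-8 and 0% with 12-4.4m1, against 2.84% and 2.18% of all genes tested. Between the TCRs, the only one of these genes to pass in limma was Cd27, a TNF receptor family costimulator, higher in spleen 4-8 than in spleen 12-4.4m1 by 0.99 (adjusted p = 6.21e-05, limma) and not passing in islets at 0.73 (0.150).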

How the data were processed

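RNA of sorted Tregs was sequenced in 12 libraries, 3 for each TCR and tissue. The submitters' processing notes name mm10 (GRCm38), STAR 1.1.0, TopHat 1.0.0, DESeq2 1.1.0, DESeq and Cufflinks, without the role of each. The authors deposited, for each of 4 comparisons, log2 values (rlog) per library, a mean normalized count as signal and an adjusted p-value from DESeq2, and 1 FPKM per group with a q-value from Cuffdiff. Depth per library is not given in the sources used here, and the sum of the deposited mean normalized counts, a signal after size factor normalization, was 898995 to 1316454 per table. Differences were recomputed from rlog with limma 3.58.1 (R 4.3.3; eBayes with trend, not robust), 3 against 3 libraries per table, 2-sided, with Benjamini-Hochberg adjustment over the 8212 to 9108 genes with a mean normalized count of at least 10. The authors' deposited log2 fold changes run the other way (r of -0.983 to -0.977 with the limma differences across genes, which are not independent replicates), and their sign was turned. Rows of repeated symbols (4) were left out. In the islet TCR table, 1 column of 4-8 carried a number found in no title and was used as islet 4-8 without a number; per-library values there are in the order replicate 1, replicate 2 and this column, and elsewhere replicate 1, 2 and 3. For spleen replicate 2 of both TCRs the description points to the other TCR's tissue table, and the title was followed. The 40 genes, their roles, the other 60 pathway genes and the marker lists were chosen with earlier results of these data known. Values per library are given for every gene that passed, for the gene of smallest p in a role where no gene passed, and for Cd3e, Lck, Zap70 and Lat; other values per library were added after being seen. The alternatives were other filters, robust variance, median centring, the authors' tests, each library left out, a replicate block, the title style, the level of Xist, an RNA of the inactive X chromosome in females, as a term between the TCRs in spleen, and spleen replicate 2 left out, with the libraries titled Treg left out as 1 added later. The values of 1 of the 60 genes, which is in their counts, are not reported here. The fit was tested on simulated data with the spread of each comparison. Between the TCRs, a simulated difference of 0.5 was found for 20.4% of changed genes in islets and 75.1% in spleen. Between tissues it was found for 21.4% with 4-8 and 24% with 12-4.4m1. A gene that did not pass may therefore still differ by such a size. No difference between fold changes of separate tables was tested.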

Additional observations from a re-analysis of the deposited data

Results flagged for a closer look

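Lcp2, which encodes the adaptor SLP-76, stood apart between tissues in opposite directions with the 2 TCRs. It had 8.62, 8.82 and 8.82 in islet 4-8, against 8.95, 8.88 and 8.98 in spleen 4-8, and 8.61, 8.52 and 8.54 in islet 12-4.4m1, against 8.38, 8.43 and 8.50 in spleen 12-4.4m1. Every islet library lay below every spleen library with 4-8 and above with 12-4.4m1. Of all genes tested, 13.1% lay lower without overlap with 4-8 and 13.2% higher with 12-4.4m1. The share that did both was not counted. The differences, -0.19 ± 0.14 and 0.12 ± 0.14 on the rlog scale, did not pass (adjusted p = 0.462 and 0.703, limma). The difference between them was not tested.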

How the results depend on the processing

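Of refits of single genes under an alternative, 572 kept their side of the threshold, 45 no longer passed and 11 newly passed. Of the 572, 563 kept their direction and 9 changed sign without passing, at 0.11 or less in size, which were Lck between the TCRs in islets, and Lat between the TCRs in spleen and between tissues with 12-4.4m1. Zap70 and Cd4 passed in all 15 alternatives with 4-8 and all 16 with 12-4.4m1, and Plcg1, Ptpn6, Ubash3a and Nfatc2 in all 16 with 12-4.4m1. Dgkz passed in 10 of 16. In the islet TCR comparison, 0 members passed under every alternative run. In spleen, the members higher in 4-8 numbered 1 with robust variance and 2 in the authors' deposited Cuffdiff table, and the members lower numbered 1 in that table and 0 to 1 with a library left out. Between tissues with 4-8, leaving out a library gave 2 to 9 higher and 1 to 7 lower. Leaving out spleen replicate 2 of each TCR gave 3 higher and 1 lower, the title style in the fit gave 7 lower (the same as leaving out islet 4-8 replicate 2, the only islet 4-8 library titled Treg), and the authors' deposited Cuffdiff table gave 8 lower. Xist in islet 4-8 replicate 2 was 10.76, against 7 and 7.91 in the other islet 4-8 libraries and 6.99 to 9.14 in spleen 4-8. Its part in these counts was not tested. With 12-4.4m1, leaving out a library gave 6 to 11 higher and 0 to 1 lower. The members lower numbered 2 with a mean normalized count of at least 50, 2 with median centring, 2 without the libraries titled Treg, an alternative chosen after seeing the data, and 0 without spleen replicate 2 of each TCR. Among the alternatives, the share of all genes passing was counted for the authors' tests and for no other. Beyond fits on fewer libraries, the cause of these shifts was not tested. Where a library was left out of a group, the fit pooled the spread over the rest.

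No label says that a replicate number marks a mouse or a day, and the libraries were not treated as paired. Deviations of same-numbered libraries correlated at -0.118 to 0.127 over all comparisons, and at 0.0748 to 0.12 between the TCRs in spleen. In spleen between the TCRs every library correlated best with its own number (6 of 6), a hint from the data and not the design. With the replicate number as a block, the members passing between the TCRs in spleen were 2 higher (Cd247 and Cd2) and 1 lower (Trat1), and the members lower in islets were 5 with 4-8 and 2 with 12-4.4m1. In islets between the TCRs the block could use 2 pairs. Depth per library is unknown, and rlog values shrink genes with low counts, so differences of genes such as Dok1 and Plcg1 are understated.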
